A study of Mus musculus with 6 samples.

Results

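The genes described here are the 37 mouse genes whose symbol is Cep followed by a number, most of which encode centrosomal proteins, measured in the prostates of TRAMP mice given OSU-CG5 or vehicle. They were chosen by symbol, from probe sets annotated to a single gene, out of 18193 genes measured in this way. They cover 80 of the 45037 probe sets on the arrays, and for each gene the probe set with the brightest mean signal was used. Symbols with a letter suffix were kept, so the 37 include Cep57l1, Cep170b, the paralogue-like Cep295nl and Cep83os, an RNA gene on the strand opposite Cep83, and 33 symbols consist of Cep and digits only. The family was proposed with the values of this contrast known, so its differences are a description, and its fitted p-values are quoted as such.

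The OSU-CG5 group held 3 intact male (C57BL/6 TRAMP x FvB) F1 mice given 100 mg/kg of OSU-CG5 per day by mouth for 4 weeks, between 6 and 10 weeks of age. Only the code name of the compound is given. The vehicle group held 3 intact male mice of the same cross, age and dosing schedule that received the vehicle. All 6 mice carry the TRAMP transgene, in which a probasin promoter directs the SV40 T antigens to prostate epithelium, so no array shows a prostate without the oncoprotein. The dorsal and lateral lobes were collected 2 to 4 h from the final dose for RNA extraction, and every mouse gave 1 Affymetrix array, so that p-values measure the spread between mice.

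The centrosome is built around a pair of centrioles, and a dividing cell copies each centriole once per cycle. Cep152 and Cep192 bring the kinase Plk4 to the parent centriole to start the copy, other Cep proteins elongate, cap or stabilise it, and the pericentriolar matrix around it nucleates microtubules. In a resting cell the older centriole carries appendages that dock it to the membrane, where it becomes the base of a primary cilium. The SV40 T antigens of TRAMP mice inactivate the tumour suppressors p53 and Rb, which act in surveillance of centrosome number and in entry into S phase.

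Grouped by role, most genes assigned to centriole duplication and length read higher with OSU-CG5, and those of appendages, linker and cilium had medians near 0. The roles were assigned with earlier results known, and the difference between roles was not tested. Of the 14 centriole genes, 13 had a log2 difference above 0 by their brightest probe set, with a median of 0.33. The second brightest probe set had the same sign of difference for Cep57, Cep192, Cep295 and Cep350. It had the opposite sign for Cep44, Cep57l1, Cep63, Cep76, Cep85 and Cep97, and the rest had no second probe set. That probe set was dim for Cep44, Cep57l1 and Cep63, with means of log2 3.90, 4.75 and 2.79. Of the 7 appendage genes, 2 were above 0, with a median of -0.01. The 5 genes of the cilium and transition zone had a median of 0.09, and the 5 of the linker and pericentriolar matrix had a median of -0.03. Cep55, which acts in the last step of cytokinesis, was higher by 0.30. None of these differences passed adjustment. After Benjamini-Hochberg adjustment of the limma p-values over all probe sets, 0 of the 37 genes had an adjusted p under 0.05, against 0% of all probe sets, and the smallest adjusted p among them was 0.151. With limma's array quality weights 1 gene, Cep192, had an adjusted p under 0.05 (0.0394), among 822 probe sets. In these bulk samples fewer cells of a type and less RNA per cell cannot be told apart.

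At an unadjusted p under 0.05 in limma there were 12 of the 37 genes, 10 higher and 2 lower with OSU-CG5. The same held for 13.8% of all 18193 genes, 5.4% higher and 8.43% lower. The 12 make 32.4% of the family, and no more is read from that share, since the contrast was known when the family was proposed. The count was 5 without OSU-CG5 replicate 2, against 8.46% of all genes, 7 without OSU-CG5 replicate 3, against 7.43%, 8 without vehicle replicate 2, against 12.7%, and 14 without vehicle replicate 3, against 17.98%. The OSU-CG5 values and the vehicle values did not overlap for 14 genes, 12 higher and 2 lower, against 22.3% of all genes, 8.1% higher and 14.2% lower. With quantile normalization repeated it was 8 genes, or 21.6%, against 23.02% of all genes. Over the 37 genes the median log2 difference was 0.20, with 25 above 0, and over all genes it was -0.09, with 34.3% above 0. With only probe sets of a mean of at least log2 6, it was 0.21 over 30 Cep genes and -0.02 over all 9627 genes.

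**Figure D1:**
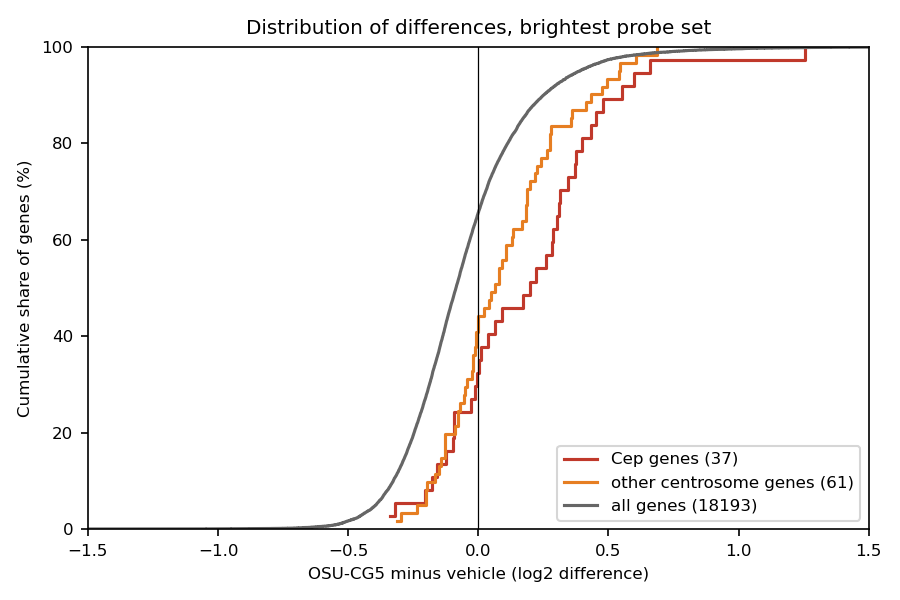
Cumulative share of genes (vertical axis, %) by log2 difference, OSU-CG5 minus vehicle (horizontal axis), for the 37 Cep genes, 61 other centrosome genes and all 18193 genes, each by its brightest probe set. The curve of the Cep genes crosses the middle of the vertical axis at 0.20, that of the other centrosome genes at 0.06 and that of all genes at -0.09. The axis is limited to differences between -1.5 and 1.5.

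One array stood apart. Vehicle replicate 2 correlated with the other arrays at 0.966 to 0.981 (Pearson's r over all probe sets), and every other pair lay between 0.987 and 0.995. Prostate secretory transcripts were high on every array, with Pbsn between 13.82 and 13.90 in OSU-CG5 mice and between 13.28 and 13.91 in vehicle mice (log2). The mean of 6 seminal vesicle transcripts was 3.56 to 4.55 in OSU-CG5 mice, and in vehicle mice it was 7.91 in replicate 2, 3.90 in replicate 1 and 5.08 in replicate 3. The 3' minus 5' signal of the Gapdh controls, a sign of RNA integrity, was 2.89 ± 0.16 in OSU-CG5 mice and 2.39 ± 0.32 in vehicle mice (log2, SD, n = 3 each), and that of the Actb controls was 3.03 ± 0.07 in OSU-CG5 mice and 2.99 ± 0.13 in vehicle mice. The part of these measures in the results below was not tested. The value without vehicle replicate 2 is given where it differed by over 1.5 times or in sign. This covers the brightest probe sets of the Cep genes and of the named other centrosome genes. Differences of cell type markers are given with all 6 arrays.

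Sequences upstream of the centriole genes Cep152 and Cep295 are shown because, by brightest probe set, these had the smallest p-value and the largest difference in the family. They are the bases before the listed start that lie outside the gene's own RefSeq span, on the minus strand of build GRCm38.p6, with matches to CCAAT, on either strand, in capitals.
Cep152, chr2:125625175-125625363: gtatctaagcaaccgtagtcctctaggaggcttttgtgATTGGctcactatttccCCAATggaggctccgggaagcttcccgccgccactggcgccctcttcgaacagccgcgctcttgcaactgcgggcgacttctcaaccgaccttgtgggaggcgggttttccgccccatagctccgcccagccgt
Cep295, chr9:15357850-15358038: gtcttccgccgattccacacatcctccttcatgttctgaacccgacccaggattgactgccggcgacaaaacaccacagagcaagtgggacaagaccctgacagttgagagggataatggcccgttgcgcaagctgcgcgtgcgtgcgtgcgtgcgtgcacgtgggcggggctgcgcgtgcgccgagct

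Both stretches are 189 bases long. The one of Cep152 holds 2 CCAAT matches, and the one of Cep295 holds 0 matches to any of the 4 motifs searched. In the part of the window not shown, Cep152 has a further CCAAT match, and Cep295 has matches to CCAAT and TTTGAA after the listed start, so it counts for both motifs. Over windows of 250 bases before to 50 after the start, on both strands, CCAAT, the core that the factor NF-Y recognises, was found for 16 of the 32 Cep genes with a RefSeq promoter entry, or 50%, against 41.1% of 27025 genes. TTTGAA, the core of the CHR element of genes expressed in mitosis, was found for 9 Cep genes, or 28.1%, against 20.2% of all. GTTGCC, contained in the X-box that RFX factors recognise in ciliary genes, was found for 8 Cep genes, or 25%, against 14.1% of all. TTCGCGC, a core of E2F sites, was found for 1 Cep gene, or 3.12%, against 1.81% of all. Matches of different motifs may share bases and were counted separately, and a gene with several listed starts counted once. These matches describe letters, not binding.

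Cep152, the scaffold that recruits Plk4, read 7.26, 7.34 and 7.42 in OSU-CG5 mice, against 6.95, 6.67 and 6.61 in vehicle mice (log2). All 3 OSU-CG5 arrays lay above all 3 vehicle arrays. The difference was 0.60 (SE 0.13; limma adjusted p = 0.151), a 1.51-fold higher signal, and it was 0.56 without vehicle replicate 2. The gene lies at chr2:125549864-125625174 (GRCm38.p6) and has 1 probe set on the array.

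Cep192, which acts with Cep152 and also organises the mitotic matrix, lies at chr18:67800054-67885170. It read 7.23, 7.44 and 7.37 in OSU-CG5 mice, against 6.60, 6.86 and 6.92 in vehicle mice (log2). The groups did not overlap, and the difference was 0.55 (SE 0.13; limma adjusted p = 0.159). Its dimmer probe set read 6.96, 6.98 and 6.83 in OSU-CG5 mice, against 5.76, 4.46 and 5.94 in vehicle mice. That probe set was low in every vehicle array and lowest in replicate 2. Its difference was 1.54 (SE 0.34; limma adjusted p = 0.151), and 1.07 without vehicle replicate 2 (limma adjusted p = 0.0241). Without that array 400 of all 45037 probe sets had a limma adjusted p under 0.05. The 2 probe sets of Cep192 thus differed in size of difference and not in direction.

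Cep295, which acts in the conversion of a new centriole into a centrosome, lies at chr9:15316914-15357849. It read 7.36, 7.31 and 7.10 in OSU-CG5 mice, against 6.45, 4.88 and 6.67 in vehicle mice (log2). Vehicle replicate 2 stood far below the others, and the groups did not overlap. The difference of 1.26 (SE 0.41; limma adjusted p = 0.217) became 0.69 (SE 0.14) without that array (limma adjusted p = 0.0551). The other probe set of Cep295 read 5.97, 6.23 and 5.88 in OSU-CG5 mice, against 5.40, 5.12 and 5.48 in vehicle mice, also without overlap. Its difference was 0.69 (SE 0.15; limma adjusted p = 0.150).

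Cep76, which restrains repeated copying of a centriole, read 7.42, 7.27 and 7.27 in OSU-CG5 mice, against 6.93, 6.86 and 6.98 in vehicle mice (log2). The arrays of each group lay close together, with SDs of 0.09 with OSU-CG5 and 0.06 with vehicle (n = 3 each). The difference was 0.40 (SE 0.11; limma adjusted p = 0.184). The other probe set of Cep76, dimmer, differed by -0.15 (SE 0.11). It read 5.18, 5.16 and 5.17 in OSU-CG5 mice, against 5.29, 5.37 and 5.29 in vehicle mice, so the gene's probe sets disagreed in direction.

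Cep350, which anchors and stabilises microtubules and centrioles, read 9.15, 9.38 and 9.34 in OSU-CG5 mice, against 8.88, 8.97 and 9.08 in vehicle mice (log2). The groups did not overlap, and the difference was 0.31 (SE 0.12; limma adjusted p = 0.267). Its next probe set differed by 0.45 (SE 0.16), with 5.59, 6.01 and 5.95 in OSU-CG5 mice and 5.22, 5.36 and 5.63 in vehicle mice. Its dimmest probe set differed the other way, by -0.22 (SE 0.12), with 3.87, 4.15 and 4.06 in OSU-CG5 mice and 4.25, 4.30 and 4.18 in vehicle mice. The gene lies at chr1:155844964-155973270.

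Cep57, which in human cells forms a complex with CEP63 and CEP152, read 8.61, 8.51 and 8.57 in OSU-CG5 mice, against 8.46, 7.78 and 8.15 in vehicle mice (log2). The groups did not overlap. The difference of 0.43 (SE 0.17; limma adjusted p = 0.275) was 0.26 without vehicle replicate 2. Its other probe set had 7.41, 7.24 and 7.46 in OSU-CG5 mice and 7.11, 6.41 and 7.17 in vehicle mice, a difference of 0.47 (SE 0.20), which was 0.23 without that array.

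The other centriole genes did not reach an unadjusted p of 0.05 with all arrays. Cep63, the partner of Cep152, had overlapping groups, with 7.43, 7.20 and 7.25 in OSU-CG5 mice and 7.09, 7.20 and 7.39 in vehicle mice, a difference of 0.07 (SE 0.13). Cep135, which links the centriole's inner cartwheel to its wall, had low signal and split groups, with 3.75, 4.54 and 4.46 in OSU-CG5 mice and 3.77, 4.39 and 3.66 in vehicle mice. Its difference was 0.31 (SE 0.26), and 0.54 without vehicle replicate 2. The log2 differences were 0.45 (SE 0.24) for Cep44, 0.35 (SE 0.15) for the elongation factor Cep120, 0.29 (SE 0.14) for Cep78, 0.28 (SE 0.18) for Cep97, which caps centrioles with Ccp110, and 0.22 (SE 0.14) for Cep57l1. For Cep44 it was 0.20 without vehicle replicate 2. Among these, the groups did not overlap for Cep78.

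Cep85, which in human cells binds the duplication factor STIL, was the most variable member, and its direction was not stable. It read 8.95, 10.77 and 10.80 in OSU-CG5 mice, against 11.39, 9.83 and 9.83 in vehicle mice (log2). The lowest value was in OSU-CG5 replicate 1 and the highest in vehicle replicate 1, so the SDs were 1.06 with OSU-CG5 and 0.90 with vehicle (n = 3 each) and the difference of -0.18 had an SE of 0.57. It was 0.43 without OSU-CG5 replicate 1, 0.34 without vehicle replicate 1 and -0.44 without vehicle replicate 2. Its other probe set differed by 0.17 (SE 0.28), with 7.00, 6.19 and 6.25 in OSU-CG5 mice and 5.91, 6.80 and 6.22 in vehicle mice. On OSU-CG5 replicate 1 and vehicle replicate 1, where the bright probe set was at its extremes, the dim one was at the opposite extremes.

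**Figure D2:**
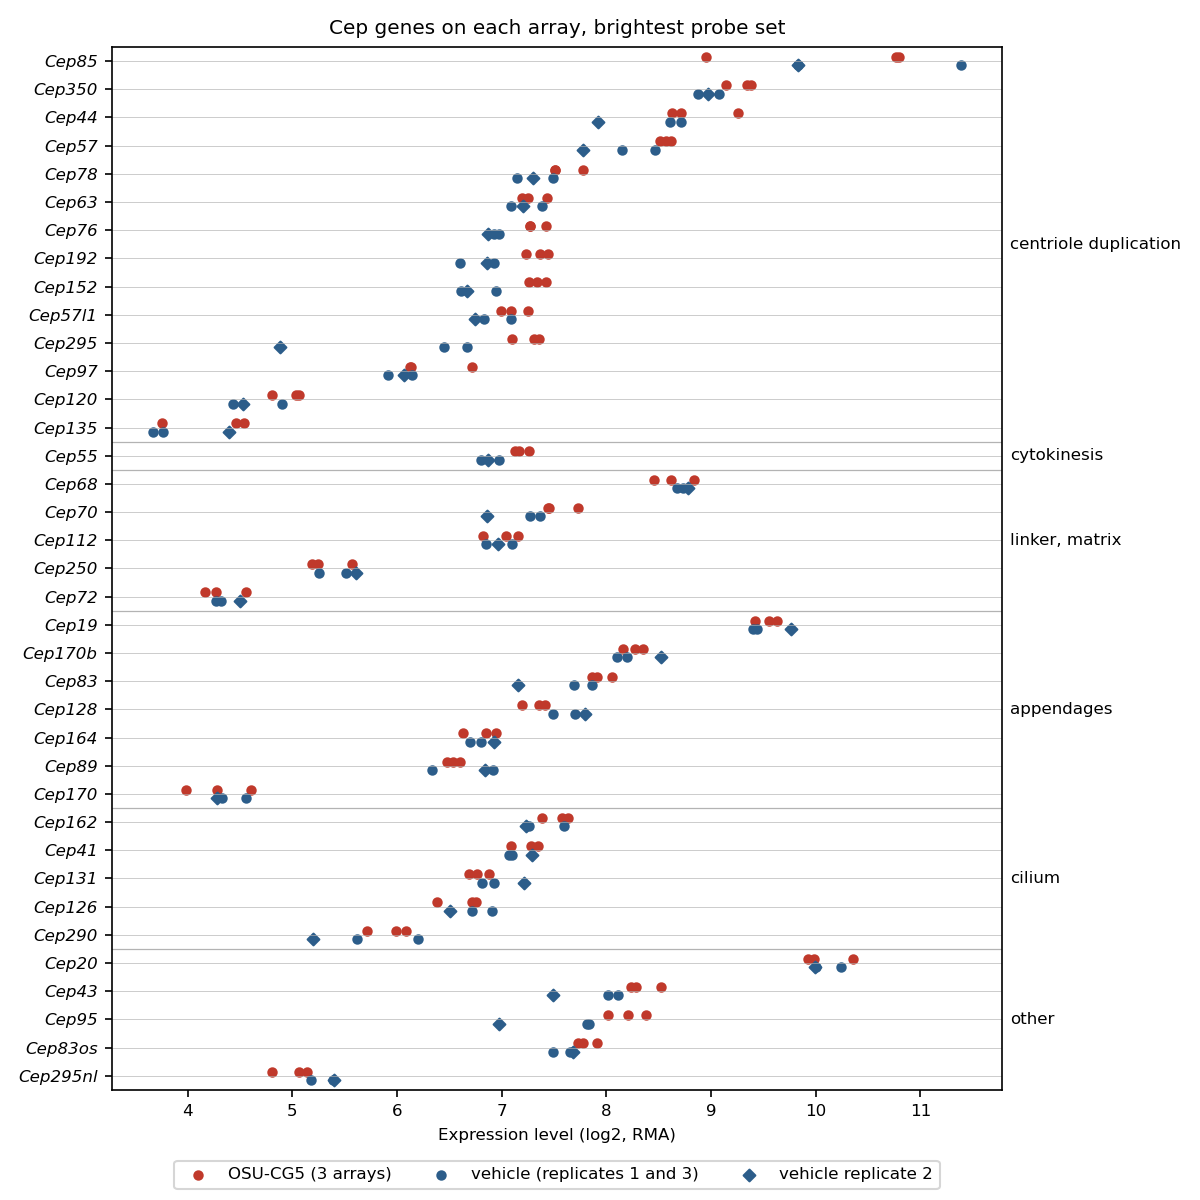
Expression level (log2, RMA, horizontal axis) of the 37 Cep genes on each array, by the brightest probe set of each gene, ordered by role and then by mean. Red points are the 3 OSU-CG5 arrays, blue points the vehicle arrays, and the diamond is vehicle replicate 2. For Cep152, Cep192 and Cep76 the red points all lie right of the blue ones, and for Cep295 the diamond at 4.88 lies far left of the other arrays. Signals of different probe sets are not RNA amounts on a shared scale.

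Cep55, the midbody protein that brings the ESCRT machinery to the site of final separation, lies at chr19:38054970-38074425. It read 7.26, 7.17 and 7.12 in OSU-CG5 mice, against 6.80, 6.87 and 6.97 in vehicle mice (log2). All OSU-CG5 arrays lay above all vehicle arrays, by a small margin. The difference was 0.30 (SE 0.11; limma adjusted p = 0.255), and 0.30 also without vehicle replicate 2. The other probe set of Cep55 was near the bottom of the scale, with 3.01, 3.52 and 3.20 in OSU-CG5 mice and 3.51, 3.46 and 2.98 in vehicle mice, and differed by -0.08 (SE 0.19).

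Among the linker and matrix genes, Cep70, a microtubule-organising protein, differed by 0.38 (SE 0.16; limma adjusted p = 0.300), and by 0.22 without vehicle replicate 2. It read 7.44, 7.72 and 7.46 in OSU-CG5 mice, against 7.27, 6.86 and 7.36 in vehicle mice (log2), without overlap. Cep250, the protein C-Nap1 that ties the centrioles together until mitosis, read 5.18, 5.25 and 5.57 in OSU-CG5 mice, against 5.51, 5.61 and 5.26 in vehicle mice. These groups overlapped, with a difference of -0.13 (SE 0.15), and -0.05 without vehicle replicate 2. Its partner in the linker, Cep68, differed by -0.09 (SE 0.13), Cep72 by -0.03 (SE 0.14) and Cep112 by 0.04 (SE 0.13). For these 4 genes the difference was smaller than its SE, and that of Cep72 was 0.04 without vehicle replicate 2.

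In the appendage group, Cep128, a protein of the subdistal appendages, was lower with OSU-CG5. It read 7.20, 7.41 and 7.36 in OSU-CG5 mice, against 7.70, 7.80 and 7.49 in vehicle mice (log2), and the groups did not overlap. The difference was -0.34 (SE 0.13; limma adjusted p = 0.259), and -0.27 without vehicle replicate 2. The suffix of its brightest probe set marks probes that may pick up other transcripts as well. The other 3 probe sets of Cep128 were also below 0, at -0.08 (SE 0.13), -0.21 (SE 0.13) and -0.29 (SE 0.14). The first of these read 5.49, 5.58 and 5.45 in OSU-CG5 mice and 5.40, 5.73 and 5.64 in vehicle mice. The next read 4.60, 4.29 and 4.32 in OSU-CG5 mice and 4.52, 4.73 and 4.59 in vehicle mice. The dimmest read 2.78, 2.85 and 2.79 in OSU-CG5 mice and 3.23, 3.23 and 2.83 in vehicle mice, close to the lowest values on the arrays.

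The distal appendage proteins dock the centriole to the membrane. Cep164, the member that recruits the kinase starting cilium growth, read 6.63, 6.95 and 6.85 in OSU-CG5 mice, against 6.70, 6.93 and 6.80 in vehicle mice (log2), and differed by 0.00 (SE 0.13), or 0.06 without vehicle replicate 2. Cep83, which is needed to place the others, differed by 0.37 (SE 0.19), and by 0.16 without vehicle replicate 2. Cep89 differed by -0.16 (SE 0.16), and by -0.09 without that array, with its other probe sets at -0.24 and -0.17. Cep19, a ciliogenesis protein among the brightest probe sets of the family, read 9.42, 9.56 and 9.63 in OSU-CG5 mice, against 9.40, 9.77 and 9.44 in vehicle mice. Cep170 of the subdistal appendages had low signal, with 4.60, 3.99 and 4.28 in OSU-CG5 mice and 4.33, 4.28 and 4.55 in vehicle mice. Cep170 and its paralogue Cep170b differed by -0.10 (SE 0.17) and -0.01 (SE 0.14). Without vehicle replicate 2 the difference was -0.15 for Cep170, 0.11 for Cep170b and 0.11 for Cep19. Around 0 the signs of this group were not stable: 4 of the 7 genes were above 0 without vehicle replicate 2, with a median of 0.06.

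Genes of the cilium and transition zone showed no member at an unadjusted p under 0.05. Cep290, the transition zone protein mutated in human ciliopathies, read 6.09, 5.72 and 5.99 in OSU-CG5 mice, against 5.62, 5.20 and 6.20 in vehicle mice (log2). The vehicle arrays spread around the OSU-CG5 arrays. The difference was 0.26 (SE 0.24), and 0.02 without vehicle replicate 2. Cep131, a protein of the centriolar satellites, read 6.69, 6.76 and 6.88 in OSU-CG5 mice, against 6.92, 7.21 and 6.81 in vehicle mice, a difference of -0.20 (SE 0.14), and -0.09 without vehicle replicate 2. Cep162, which marks the site of transition zone assembly, differed by 0.17 (SE 0.14), Cep41, needed for tubulin glutamylation, by 0.09 (SE 0.13) and Cep126 by -0.09 (SE 0.16). Without vehicle replicate 2 these were 0.10 for Cep162, 0.16 for Cep41 and -0.20 for Cep126. Of 5 measured markers of multiciliated cells, 4 were below 0, and their mean was low on all arrays, at 4.14 to 4.30 in OSU-CG5 mice and 4.24 to 4.54 in vehicle mice. Foxj1, the master regulator of motile cilia, was between 3.83 and 3.99 in OSU-CG5 mice and between 3.83 and 3.99 in vehicle mice.

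**Figure D3:**
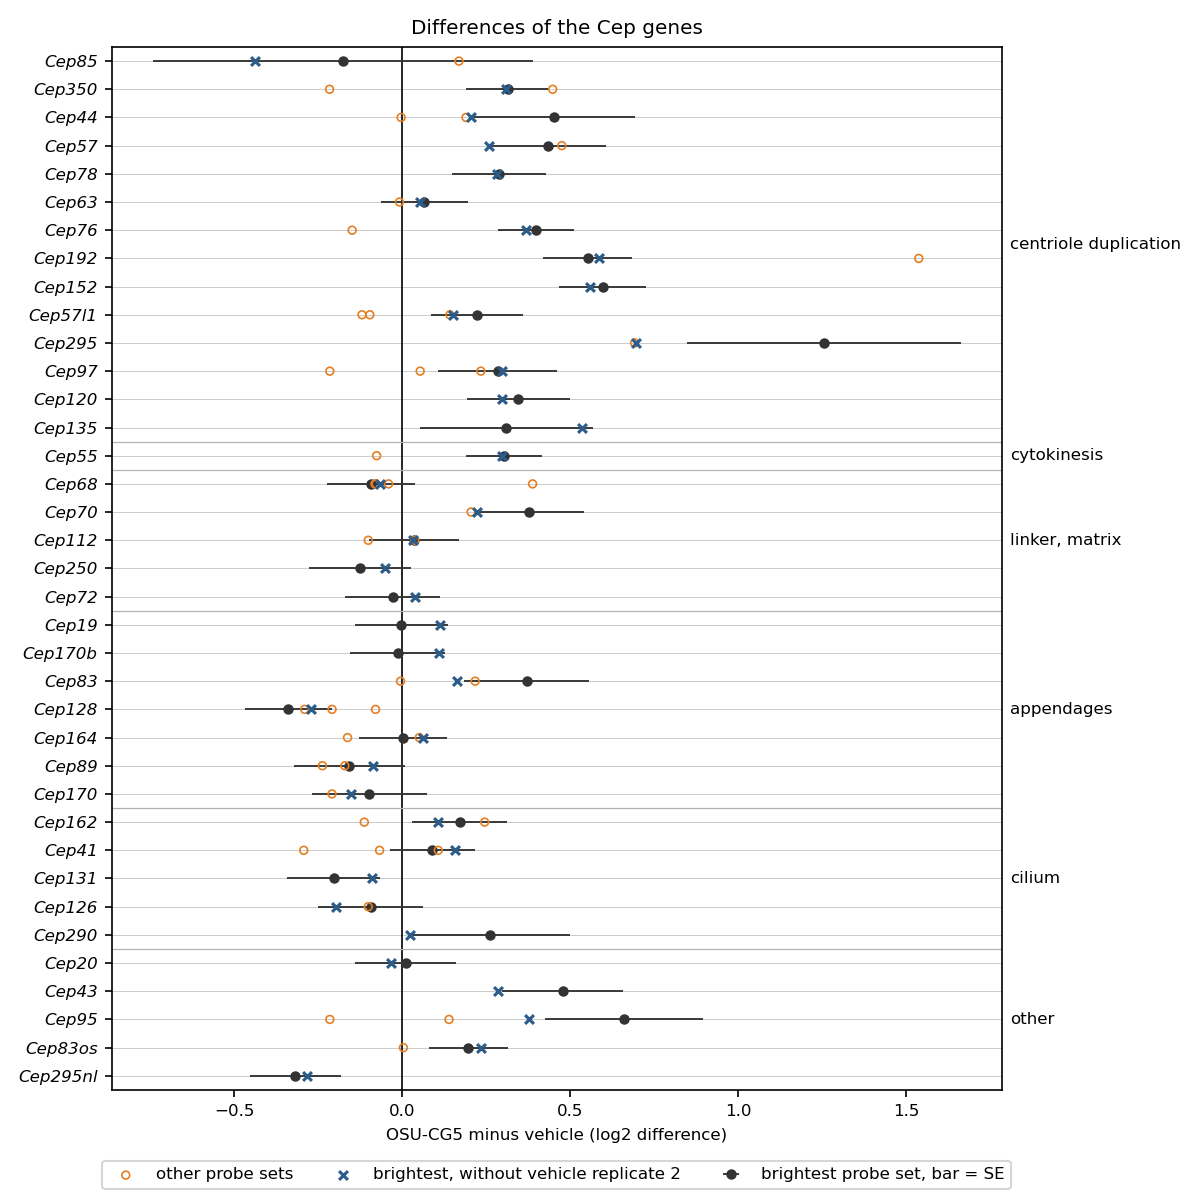
Log2 difference, OSU-CG5 minus vehicle (horizontal axis), of each Cep gene. Filled points are brightest probe sets with bars of 1 SE, open circles the other 43 probe sets, and crosses the brightest probe set without vehicle replicate 2. The cross lies nearer to 0 than the point for Cep295, Cep95, Cep43 and Cep290, and nearly on it for Cep152, Cep192 and Cep55.

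Of the 5 remaining genes, Cep95 and Cep43 read higher and Cep295nl lower with OSU-CG5. Cep95, a centrosomal protein of little-described function, read 8.02, 8.38 and 8.21 in OSU-CG5 mice, against 7.81, 6.97 and 7.84 in vehicle mice (log2). The groups did not overlap, and vehicle replicate 2 was lowest. The difference was 0.66 (SE 0.23; limma adjusted p = 0.238), and 0.38 without that array. Its other probe sets differed by 0.14 (SE 0.12) and -0.22 (SE 0.13). The brighter of these had 5.68, 5.52 and 5.46 in OSU-CG5 mice and 5.55, 5.40 and 5.30 in vehicle mice. The dimmer had 2.80, 2.69 and 2.75 in OSU-CG5 mice and 3.05, 3.09 and 2.75 in vehicle mice. Cep43, also called FOP, acts at the distal end of centrioles. It read 8.52, 8.29 and 8.24 in OSU-CG5 mice, against 8.02, 7.49 and 8.11 in vehicle mice, a difference of 0.48 (SE 0.18; limma adjusted p = 0.257), and 0.29 without vehicle replicate 2.

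Cep295nl read 4.81, 5.06 and 5.14 in OSU-CG5 mice, against 5.39, 5.39 and 5.18 in vehicle mice (log2), a difference of -0.32 (SE 0.13; limma adjusted p = 0.293). The groups did not overlap, by a narrow margin. Cep20, a satellite protein related to Cep43, read 10.36, 9.99 and 9.93 in OSU-CG5 mice, against 10.24, 9.99 and 10.01 in vehicle mice, a difference of 0.01 (SE 0.15), and -0.03 without vehicle replicate 2. Cep83os and Cep83 lie head to head on chromosome 10, with 10 bases between their RefSeq spans. Cep83os read 7.78, 7.73 and 7.91 in OSU-CG5 mice, against 7.65, 7.68 and 7.49 in vehicle mice, without overlap, and differed by 0.20 (SE 0.12), beside 0.37 for Cep83. Cep83 read 8.05, 7.91 and 7.86 in OSU-CG5 mice and 7.87, 7.15 and 7.69 in vehicle mice, and its lowest OSU-CG5 value lay just under its highest vehicle value.

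The choice of probe set mattered. Of the 37 genes, 24 had more than 1 probe set, and the second brightest had the same sign of difference for 14 of them. The 43 probe sets that were not the brightest of their gene had a median difference of -0.04, with 18 above 0, and 4 had an unadjusted p under 0.05 in limma, all higher. Those 18 make 41.9%. The 16752 probe sets that were not the brightest of their gene, over all genes, had a median of -0.06, with 40.3% above 0. Of them 2673 had an unadjusted p under 0.05 in limma, 1587 higher and 1086 lower. Among all 45037 probe sets 16.4% had an unadjusted p under 0.05, 9.63% higher and 6.8% lower. The 4 Cep probe sets under 0.05 belonged to Cep295, Cep192, Cep350 and Cep57. The gap between the brightest and the next probe set was smallest for Cep97, at 0.31, where the differences were 0.28 and -0.22, and for Cep170, at 0.31, where they were -0.10 and -0.21. With the mean of all probe sets of a gene in place of the brightest, the median over the 37 genes was 0.09.

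By array, the median deviation of the 37 genes from their own means was 0.15, 0.05 and 0.09 in OSU-CG5 mice, against -0.09, -0.15 and -0.04 in vehicle mice (log2). The groups were separate, and vehicle replicate 2 was lowest. Over all genes the same measure was -0.04, -0.03 and -0.03 in OSU-CG5 mice, against 0.02, 0.10 and -0.01 in vehicle mice. The 14 centriole genes had 0.23, 0.21 and 0.21 in OSU-CG5 mice, against -0.17, -0.26 and -0.10 in vehicle mice. Vehicle replicate 2 held the lowest value of the 6 arrays for 11 of the 37 genes, or 29.7%, and for 15.1% of all genes. Without that array 13 of the 14 centriole genes were still above 0, with a median of 0.30, and the median over the 37 genes was 0.15.

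**Figure D4:**
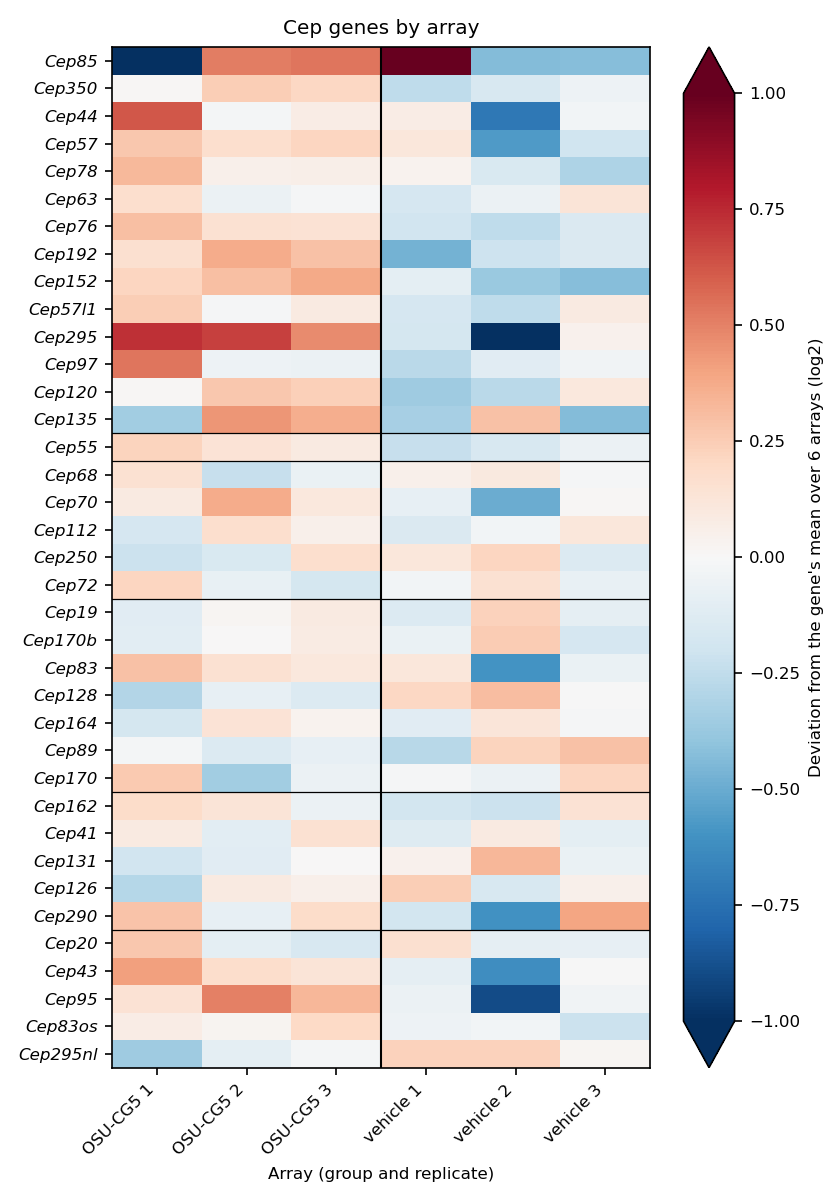
Deviation of each Cep gene (rows, by role) from its own mean over the 6 arrays (colour, log2, limited to 1 either way), with OSU-CG5 arrays left and vehicle arrays right of the line. The upper block of centriole genes is mostly red in the OSU-CG5 columns and blue in the vehicle columns. The strongest blue cells of vehicle replicate 2 include Cep295, Cep95 and Cep44.

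Markers of dividing cells moved partly with the family. Of 9 measured markers, 7 were above 0, against 34.3% of all genes. In limma 2 had an unadjusted p under 0.05, both higher, against 5.4% higher and 8.43% lower among all genes. The mean of the 9 markers was 8.34, 8.22 and 8.23 in OSU-CG5 mice, against 8.01, 8.24 and 8.02 in vehicle mice (log2). By this mean vehicle replicate 2 read as high as the OSU-CG5 arrays, while it read lowest for the centriole genes. Single markers differed on that array. It was the lowest of the 6 arrays for Mki67 (9.89) and Bub1 (6.11), and the highest for Aurkb, Cdc20, Ccna2, Plk1 and Birc5. Top2a, a topoisomerase of dividing cells, read 9.50 there, against 10.00 to 10.27 in OSU-CG5 mice. The difference was 0.73 (SE 0.12) for Top2a, 0.49 (SE 0.17) for Mki67 and -0.28 (SE 0.15) for the mitotic regulator Cdc20. Cdc20 read 10.12 in vehicle replicate 2, against 9.57 and 9.74 in the other vehicle mice and 9.51 to 9.56 in OSU-CG5 mice. Among the lists of other cell types, the median difference was above 0 only for luminal prostate, at 0.14. Of 6 luminal prostate markers 4 were above 0, with means of 12.4 to 12.7 in OSU-CG5 mice and 12.3 to 12.4 in vehicle mice. Single arrays weighed on these values. Pbsn and Msmb were lowest in vehicle replicate 2, at 13.28 and 12.26. Msmb read 13.33 and 13.30 in the other vehicle mice and 13.27 to 13.34 in OSU-CG5 mice. Spink1 read 13.22 in OSU-CG5 replicate 3, against 10.55 and 11.25 in the other OSU-CG5 mice and 10.23 to 11.02 in vehicle mice. All 6 skeletal muscle markers were below 0, with means of 5.03 to 5.88 in OSU-CG5 mice and 5.99 to 6.70 in vehicle mice. Below 0 were also 5 of 6 smooth muscle markers, 5 of 6 fibroblast and matrix markers, and all 4 lymphocyte markers. The same held for all 3 basal, all 2 neuroendocrine and all 6 seminal vesicle markers. Trp63 of the basal list was near 0, at -0.002 (SE 0.12), and the seminal vesicle mean was highest in vehicle replicate 2, at 7.91. Of all 18193 genes, 11945 were below 0. All 7 macrophage and antigen presentation markers were below 0, with means of 6.97 to 7.22 in OSU-CG5 mice and 7.35 to 7.78 in vehicle mice. All 5 endothelial markers were below 0, with 5.08 to 5.19 in OSU-CG5 mice and 5.32 to 5.61 in vehicle mice. The part of cell composition in the Cep values was not tested.

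Centrosome genes without the Cep symbol were taken from a list of 65 names, of which 61 were measured. The names not found include Fgfr1op and Fopnl, older symbols of the family members Cep43 and Cep20. Their median difference was 0.06, with 34 above 0, and in limma 10 were higher and 1 lower at an unadjusted p under 0.05, against 5.4% higher and 8.43% lower among all genes, with 0 at an adjusted p under 0.05. The 4 of smallest p in each direction are named. Cenpj, the centriole elongation factor also called CPAP, read 7.62, 7.74 and 7.71 in OSU-CG5 mice, against 7.13, 6.82 and 7.06 in vehicle mice (log2). It differed by 0.69 (SE 0.13; limma adjusted p = 0.136). The log2 difference was 0.60 (SE 0.16) for Tubgcp3, a subunit of the microtubule-nucleating gamma-tubulin complex, 0.54 (SE 0.15) for Ccp110, which caps centrioles with Cep97, and 0.48 (SE 0.15) for Haus6, an augmin subunit. On the lower side were Nphp4 at -0.31 (SE 0.13), Poc1b at -0.30 (SE 0.16), Haus8 at -0.20 (SE 0.13) and Mks1 at -0.20 (SE 0.13), and Poc1b was at -0.12 without vehicle replicate 2. Nphp4 and Mks1 are proteins of the ciliary transition zone.

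Gene length and signal were set beside the differences as a description. The Cep genes spanned 8.28 to 435.4 kb of the genome, with a median of 42.6 kb, against a median of 20.3 kb for the 18032 genes with a RefSeq length. Across the 37 genes Spearman's rho between gene length and log2 difference was 0.09, and across all genes it was 0.19. Between mean signal and log2 difference rho was 0.15 across the 37 genes and 0.26 across all genes. The genes were measured on the same 6 arrays and are not independent.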

How the data were processed

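Per the labels' protocols, RNA was purified with Trizol, and cRNA carrying biotin was put on Affymetrix arrays. Each deposited value is the log2 expression of a probe set, and the submitters' processing notes name RMA. Its software is not given in the sources used here. RMA normalizes the arrays together, which can remove part of a broad shift.

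Groups follow the source label, although some treated samples name another compound number in their description. Without the 64 Affymetrix controls, 45037 probe sets were tested with limma's lmFit and eBayes (limma 3.58.1 under R 4.3.3), as OSU-CG5 minus vehicle, without a filter, with Benjamini-Hochberg adjustment at 0.05, and the procedure was tested on simulated data. SE is the moderated standard error, and SD is over the 3 arrays of a group. With 3 arrays per group, their number limits the precision. Names come from the platform's annotation, and all 80 Cep probe sets kept their symbol in RefSeq (GRCm38.p6), which also gave coordinates and promoters.

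Members, roles and lists were chosen with earlier results of these data known. Every member is named. Values on every array are given for 8 fixed genes, the 10 of smallest p and the 4 of most negative difference (both among means of log2 5 or more), the brightest 3 and dimmest 2, and the other probe sets of the 10, and some members were added after their values were seen. Alternatives were filters at log2 6 and 4, 3 scalings, other moderation, array weights, other probe set choices, symbols of digits only, and leaving out each array.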

Additional observations from a re-analysis of the deposited data

How the results depend on the processing

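The number of Cep genes with an adjusted p under 0.05 was 0 with all arrays and in every alternative but array quality weights, and it was 0 to 0 when each array was left out. With array weights it was 1, Cep192, with a log2 difference of 0.64 (limma adjusted p = 0.0394), beside 822 calls among all probe sets. All probe sets gave 400 calls without vehicle replicate 2 and 885 without vehicle replicate 3. The 12 genes at an unadjusted p under 0.05 became 7 with repeated quantile normalization (18.9%, against 15.05% of all genes), 7 with cyclic loess (against 11.9%), 6 without moderation (16.2%, against 11.7%) and 7 with the mean of all probe sets (against 14.1%), and 5 to 14 when each array was left out (against 7.43% to 17.98%). The 14 genes without overlap became 8 with repeated quantile normalization, which is 21.6% beside 23.0% of all genes, and 14 to 20 when each array was left out, where the share over all genes was also higher, at 29.5% to 38.5%. The median of 0.20 was 0.11 with repeated quantile normalization, 0.0886 with the mean of all probe sets, 0.26 with symbols of digits only and 0.15 to 0.22 when each array was left out. The median over other centrosome genes, 0.0638 with all arrays, was 0.0134 with repeated quantile normalization and 0.04 to 0.10 when each array was left out. The cause of these changes was not tested. The median over all genes, -0.086 with the deposited values, was -0.082 with arrays centred on their median. It was -0.091 with repeated quantile normalization and -0.043 with cyclic loess. No paired analysis was possible because the replicate numbers were given in accession order and pair no mice.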
